A study of Oryza sativa with 6 samples.

Results

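The H3K9me3 peaks of rice leaves were described along the 12 chromosomes. All 2959 peaks of the H3K9me3 list were taken, of 82347 peaks in the lists of 6 histone marks. The chromatin came from leaves of 2-week-old seedlings of the cultivar Nipponbare grown in a greenhouse, which the labels also call seedling tissue. It was immunoprecipitated with an antibody against H3K9me3 (Millipore), the histone H3 tail with 3 methyl groups on lysine 9, and sequenced. The other lists, from the same kind of material with other antibodies, were for H3K4ac, H3K9ac, H3K27ac, H3K27me3 and H3K9me1, and the labels name no treatment or mutation. Each mark had 1 library, so no value below has a replicate check and no test was made. Intervals are 95% intervals that cover counting error only, and peaks of 1 library are not replicates.

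Methylation of H3 lysine 9 is best known as a mark of silent chromatin rich in transposons and repeats. In mammals the trimethylated form marks heterochromatin around centromeres, whereas in plants the dimethylated form is the main heterochromatic one, and in Arabidopsis the trimethylated form was mapped mostly to genes in euchromatin. H3K27me3 is the mark of Polycomb silencing, and acetylation of H3 lies mainly at the starts of transcribed genes. In rice, genes are denser toward the chromosome ends, and the short arms of chromosomes 4 and 10 are known as heterochromatic.

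A peak is a region where reads piled up over background, and its score is the value that the authors' peak caller gave it. The read depth, any control library and the genome build of the lists are unknown here, so the length of a list is no measure of how widespread its mark is. Positions are given as the list gives them, counted from 1, and centromeres and genes were not located. The span of a chromosome ran from base 1 to the last base of any peak of the 6 lists, and the 12 spans added up to 373.2 Mb. The H3K9me3 scores were low: 79.8% of the peaks (78.3 to 81.2%) scored under 75, compared with 61.4% for H3K9me1, 40.7% for H3K27ac, 22.1% for H3K9ac, 17.7% for H3K4ac and 13.9% for H3K27me3. The median H3K9me3 score was 60.9 and the lowest was 50.0, so most of the landscape rests on peaks close to the lower limit of the list.

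H3K9me3 peaks were found at a similar density on every chromosome. They covered 2.23% of the span, at 7.93 peaks per Mb. Chromosome 1 held the most peaks, 362, and chromosome 9 the fewest, 164. Per Mb the density ran from 7.13 peaks on chromosome 9 (6.08 to 8.30) to 8.78 on chromosome 5 (7.75 to 9.91), a ratio of 1.23, and these intervals overlap. The same ratio of the densest to the sparsest chromosome was 1.19 for H3K9me1, 1.30 for H3K27me3 and 1.42 to 1.47 for the acetylation marks. The covered share ran from 1.91% of chromosome 9 to 2.60% of chromosome 5.

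Along the chromosomes the peaks were spread thinly and nearly evenly. The spans were divided into 753 bins of 500 kb, of which the last bin of each chromosome was shorter, and each peak was counted in the bin of its midpoint. A bin held 3.93 peaks on average, with a median of 4 and a maximum of 13, and 709 bins (94.2%) held 1 to 8 peaks. The median bin had 10186 bp under H3K9me3 peaks, with quartiles of 6411 and 14785 bp. As a reference, a Poisson formula with the same mean gives the counts that even and independent placement would have. There were 26 empty bins against 14.8 by the formula, 165 bins with 1 or 2 peaks against 172, 404 with 3 to 5 against 412, 140 with 6 to 8 against 139, and 18 with 9 to 13 against 14.6. The empty bins had the largest excess over the formula of these classes, and 3 of them were short bins at chromosome ends.

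**Figure D1:**
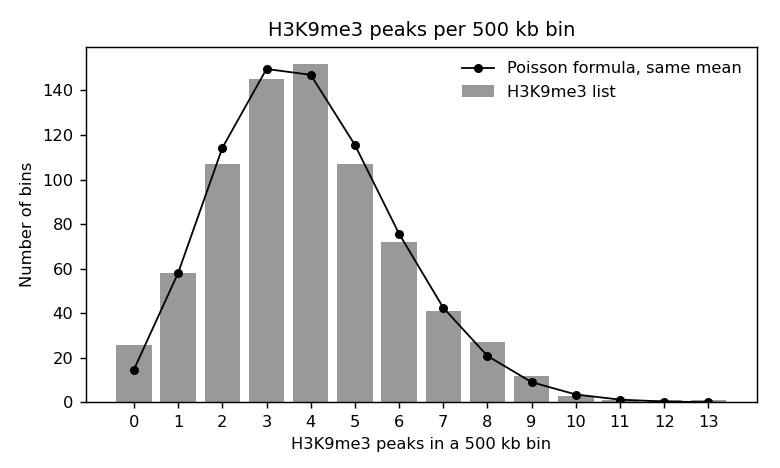
Number of 500 kb bins (vertical axis) by the number of H3K9me3 peaks in the bin (horizontal axis); grey bars are the H3K9me3 list and black points the Poisson formula with the same mean of 3.93. The bars follow the points, apart from the 26 empty bins against 14.8 and the single bin with 13 peaks.

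The variance of the peaks per bin was 1.12 times their mean, where the formula gives 1. It was 1.28 for H3K9me1, 2.29 for H3K27ac, 2.87 for H3K27me3, 3.72 for H3K4ac and 3.98 for H3K9ac. Such a ratio can grow with the number of peaks per bin, so lists of different length cannot be ranked by it. For H3K9me3 it also grew with the bin, from 0.999 in 100 kb bins and 1.04 in 250 kb bins to 1.16 in 1 Mb and 1.46 in 2 Mb bins. The 10% of bins with the most peaks, 76 bins, held 20.5% of the peaks (19.1 to 22.0%), and the formula gives 19.9%. Over 741 pairs of neighbouring bins the rank correlation of H3K9me3 counts was 0.0645, compared with 0.705 for H3K4ac, 0.718 for H3K9ac, 0.451 for H3K27ac, 0.310 for H3K27me3 and 0.0731 for H3K9me1. At this bin size a full bin therefore told little about the bin beside it for either H3K9 methylation mark. For H3K9me3 the correlation was higher in larger bins, at 0.109 in 1 Mb and 0.177 in 2 Mb bins. These correlations are descriptions, since neighbouring bins share a library. Small counts per bin also hold such a correlation low, so lists of different length cannot be ranked by it.

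**Figure D2:**
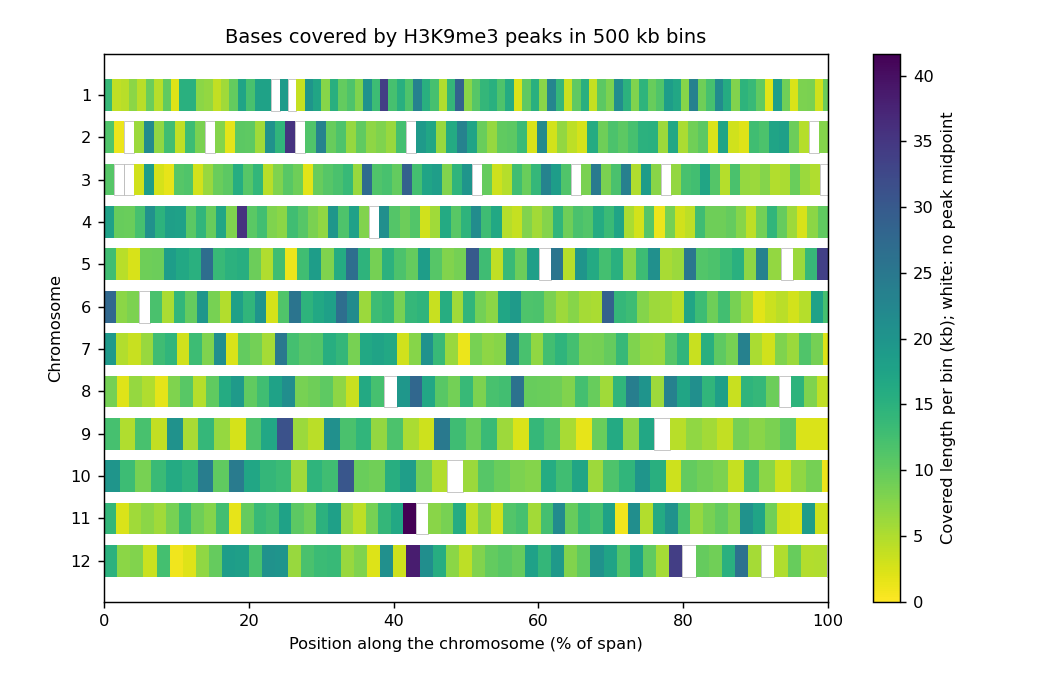
Bases covered by H3K9me3 peaks in each 500 kb bin (colour, kb per bin; white bins hold no peak midpoint) along the 12 chromosomes (rows), with position as a percentage of the span. All but 26 of the 753 bins are coloured, chromosome 7 has no white bin, and the darkest bin, with 41.6 kb, lies 42.2% along chromosome 11.

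The bins with the most covered bases lay on 8 chromosomes. The first was chromosome 11 from 12000001 to 12500000, with 13 peaks over 41.6 kb, or 8.33% of the bin. It was followed by chromosome 12 from 11500001 to 12000000 with 9 peaks over 38.3 kb, chromosome 2 from 9000001 to 9500000 with 9 over 35.6 kb, and chromosome 4 from 6500001 to 7000000 with 10 over 35.5 kb. The strength of the peaks differed between these bins. The chromosome 11 bin had 6 peaks with a score of at least 100 and the chromosome 12 bin 3, whereas those of chromosomes 2 and 4 had none, with highest scores of 78.2 and 92.02. The other 6 bins were on chromosome 1 from 16500001 to 17000000 (34.2 kb), chromosome 12 from 21500001 to 22000000 (34.1 kb), chromosome 5 from 29500001 to 29957346 (33.7 kb), chromosome 9 from 5500001 to 6000000 (31.2 kb), chromosome 10 from 7500001 to 8000000 (30.5 kb) and chromosome 5 from 15000001 to 15500000 (30.0 kb). The fullest bins of the remaining chromosomes were lower, with 28.8 kb on chromosome 3, 28.9 kb on chromosome 6, 24.994 kb on chromosome 7 and 27.8 kb on chromosome 8. In the 10 bins the median number of H3K9ac peaks was 24 and that of H3K27me3 peaks 10.5, compared with 35 and 17 in the 718 full-size bins with any H3K9me3 peak.

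Some full bins lay directly beside empty ones. This held for 3 of the 10 bins above, on chromosomes 2, 11 and 12, where the bins from 9500001, 12500001 and 22000001 held no midpoint of an H3K9me3 peak. The last of these still had 248 bp under a peak, and the other empty bins had none. The share of all bins that lie beside an empty one was not computed, so 3 of 10 is not shown to be unusual. Among the empty bins there was 1 run of 2, on chromosome 3 from 500001 to 1500000, and the other 24 were single bins. That run held 94 H3K9ac, 27 H3K27me3 and 5 H3K9me1 peaks, so reads were mapped there for other marks. Chromosome 3 had 6 empty bins, chromosome 2 had 5 and chromosome 7 had none. In the 23 empty bins of full size the median number of H3K9me1 peaks was 4, against 7 in the 718 others, while that of H3K9ac was 38 against 35.

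Across the 753 bins the number of H3K9me3 peaks followed that of H3K9me1, the monomethylated form of the same lysine, more than that of any other mark. The rank correlation was 0.305 with H3K9me1 and between -0.047 and 0.003 with the other 4 marks. When H3K9me3 peaks that overlapped an H3K9me1 peak were left out, it was 0.0148. Choosing peaks by their overlap with H3K9me1 lowers this value by construction. For covered length, the correlation was 0.241 with H3K9me1 and -0.158 with H3K9ac. The points share the sequence and its mappability, which were not examined.

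With each span cut into 3 equal parts, H3K9me3 peaks were not gathered in the middle part. The first part held 979 peaks (33.1%), the middle one 1000 (33.8%, 32.1 to 35.5%) and the last 980 (33.1%). On single chromosomes the share of the middle part ran from 29.8% on chromosome 10 to 38.2% on chromosome 3, and it exceeded the even share of 33.3% on 5 of 12 chromosomes. Every chromosome's interval included the even share. The middle part held 34.0% of the H3K9me1 peaks, 29.8% of the H3K27me3 peaks, 27.4% of the H3K4ac peaks, 27.2% of the H3K9ac peaks and 26.1% of the H3K27ac peaks. The intervals of the 4 last marks lay below that of H3K9me3, but the lists differ in length. With only as many top-scoring peaks as the H3K9me3 list has, the shares of H3K4ac (31.6%, 29.9 to 33.3%) and H3K9ac (31.8%, 30.1 to 33.5%) had intervals that overlapped that of H3K9me3. The intervals of H3K27ac (27.3%, 25.7 to 28.9%) and H3K27me3 (29.1%, 27.5 to 30.8%) still lay below it.

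The outermost stretches of the span were the exception. With each span cut into 10 equal stretches, the first held 8.42% of the H3K9me3 peaks (7.47 to 9.47%) and the last 7.40% (6.51 to 8.40%), whereas each of the 8 stretches between held 9.80 to 11.5%. In density, the last stretch had 5.87 peaks per Mb and the 8 between had 8.34. The last stretch held under 10% of the peaks on all 12 chromosomes, with 4.98% on chromosome 12 and 9.51% on chromosome 5 as the extremes. The first stretch did so on 10 chromosomes, the others being chromosomes 4 (13.5%) and 10 (13.6%). H3K9ac went the other way, with 11.6% of its peaks in the first stretch, 7.13% in the fifth and 12.9% in the last. H3K9me1 had 7.90% in the first stretch and 9.44% in the last. The central 50% of the span held 52.4% of the H3K9me3 peaks (50.6 to 54.2%), and it was the denser part on 10 of 12 chromosomes.

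**Figure D3:**
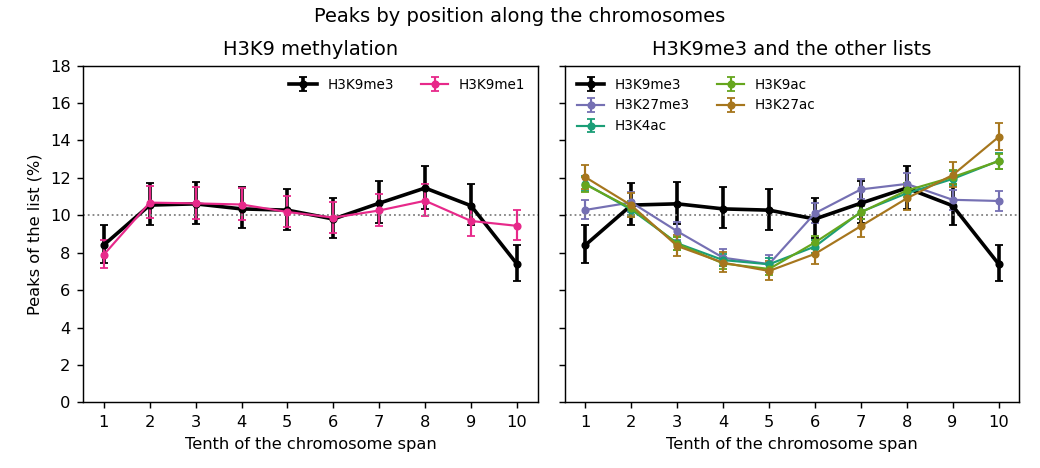
Share of each list's peaks (vertical axis, %) in each of 10 equal stretches of the chromosome span (horizontal axis), with 95% Wilson intervals; the dotted line is the even share of 10%. H3K9me3 (black) falls to 8.42% and 7.40% in the outermost stretches, where H3K9ac reaches 11.6% and 12.9%.

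Chromosomes 4 and 10 carried more H3K9me3 peaks at their beginnings. This comparison was chosen after the values had been seen. The first 20% of the span of chromosome 4 held 78 of its 288 peaks (27.1%, 22.3 to 32.5%) and that of chromosome 10 held 54 of 191 (28.3%, 22.4 to 35.0%). On the other 10 chromosomes together it held 429 of 2480 (17.3%, 15.9 to 18.8%). In density, the first 20% of the span had 10.99 peaks per Mb on chromosome 4 and 11.6 on chromosome 10, compared with 7.39 and 7.38 in the rest of each, and 6.82 on the other 10 chromosomes. H3K9ac was thinner in the same stretches. It had 14.05% of its chromosome 4 peaks and 17.4% of its chromosome 10 peaks in the first 20%, against 23.1% on the other chromosomes. For H3K4ac the shares were 13.6%, 17.6% and 23.1%. H3K27ac had 15.2% on chromosome 4, but on chromosome 10 its 19.2% (16.0 to 22.8%) had an interval that overlapped that of the other chromosomes (23.5%, 22.6 to 24.5%). H3K27me3 had 16.4% (14.3 to 18.6%) on chromosome 4 but 22.9% (20.1 to 25.9%) on chromosome 10, against 21.3% (20.6 to 22.1%) on the other chromosomes. For H3K9me1 the shares were 17.4% (14.2 to 21.1%), 21.2% (16.8 to 26.4%) and 18.5% (17.4 to 19.7%). The H3K9me1 interval lay below that of H3K9me3 on chromosome 4, and the intervals of both marks overlapped on chromosome 10. The fullest bin of chromosome 4 lay in this first 20%, at 19.0% of the span.

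The distances between neighbouring peaks were mostly long and close to those of an even spread. The 2947 gaps, from the end of a peak to the start of the next, had a median of 79489 bp (74306 to 83627) and quartiles of 31948 and 170599 bp. The standard deviation was 1.07 times the mean, where an exponential formula for independent placement gives 1. This ratio was 1.06 for H3K9me1, 1.17 to 1.21 for the acetylation marks and 1.503 for H3K27me3. Gaps under 10 kb made up 8.59% for H3K9me3 (7.63 to 9.65%), against 7.83% by the formula with each chromosome's mean gap. For H3K27me3, a mark known for broad neighbouring domains, the share was 43.5% against 31.3%, and for H3K9me1 14.4% against 12.7%.

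At the shortest distances the H3K9me3 peaks were farther apart than the formula. Only 6 gaps were under 1 kb where it gives 23.9, and 27 were under 2 kb where it gives 47.7. Under 5 kb there were 113 against 118. At longer limits the list lay slightly above the formula, with 35.9% of the gaps under 50 kb against 33.5%, and 57.4% under 100 kb against 55.7%, and at 200 kb both were 80.3%. The longest gaps were 1437 kb on chromosome 3 (462466 to 1899378), 1052 kb on chromosome 3 (27601260 to 28653674), 1026 kb on chromosome 2 (775816 to 1801377), 949 kb on chromosome 1 (10911947 to 11861056) and 894 kb on chromosome 4 (12608993 to 13502531). All of them held peaks of the other 5 marks, and the first held 144 H3K9ac peaks.

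**Figure D4:**
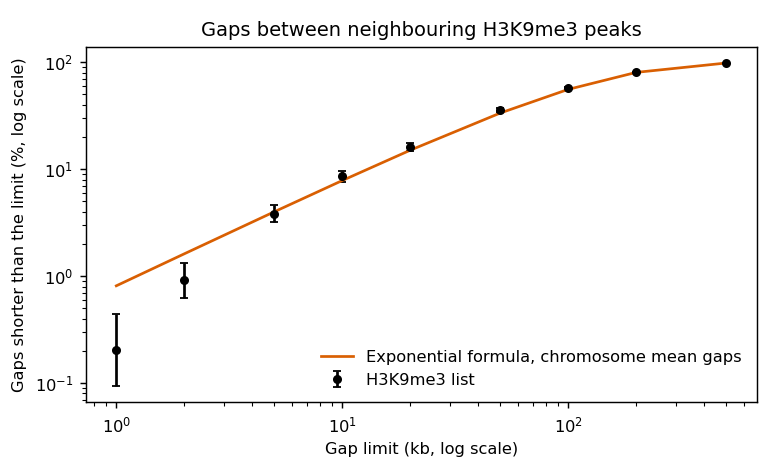
Share of the 2947 gaps between neighbouring H3K9me3 peaks that are shorter than a limit (vertical axis, %, log scale) by that limit (horizontal axis, kb, log scale), with 95% Wilson intervals; the line is the exponential formula. The points lie below the line at 1 kb (0.204% against 0.812%) and 2 kb, and close to it or slightly above from 5 kb on.

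Few peaks formed clusters. With neighbours up to 10 kb apart joined, 2490 peaks (84.2%) stood alone, where the formula gives 84.95%. There were 186 pairs, 26 clusters of 3 peaks, 2 of 4, 1 of 5 and 1 of 6. Clusters of 3 or more held 97 peaks, or 3.28% of the list (2.69 to 3.98%), against 51.6 peaks or 1.74% by the formula. They were 13.5 to 37.3 kb long, with a median of 22.2 kb, and 17 of the 30 lay in the middle one of the 3 parts of the span, 8 in the first and 5 in the last. Chromosome 6 had none.

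The 2 largest clusters were unlike each other. On chromosome 10, 6 peaks lay between 4064162 and 4101425, with scores of 53.0 to 83.2, and none of them overlapped an H3K9me1 peak. On chromosome 12, 5 peaks lay between 11974153 and 12010054, with scores of 162 to 643, and all 5 overlapped an H3K9me1 peak. The next were 4 peaks on chromosome 3 between 22108042 and 22140846, 4 on chromosome 11 between 18118247 and 18140783, and 3 on chromosome 1 between 15954677 and 15973357. This last one is the first by position of the 26 clusters tied at 3 peaks. Over all 30 clusters, 8 had a peak with a score of at least 100. In 4 clusters every peak lay on H3K9me1 and in 10 none did. Of all H3K9me3 peaks, 32.3% (30.7 to 34.0%) lay on H3K9me1 and 5.04% scored at least 100. Whether the clusters differ from these shares was not tested.

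The peaks were wide and their widths varied moderately. Widths ran from 390 to 8168 bp, with a median of 2558 bp (2490 to 2638) and quartiles of 1824.5 and 3613.5 bp. Of the peaks, 2636 (89.1%) were 1000 to 5000 bp wide, 101 were narrower and 222 wider. The upper quartile was 1.98 times the lower one, compared with 2.66 for H3K27me3 and 1.405 to 1.549 for the other 4 lists. The widest peak lay on chromosome 1 from 16848198 to 16856365, with a score of 65.3, and the next one, 7898 bp wide with a score of 50.4, lay on the same chromosome from 16781910 to 16789807. They were followed by peaks on chromosome 5 (401943 to 409750, 7808 bp), chromosome 4 (9136088 to 9143411, 7324 bp) and chromosome 6 (21846669 to 21853851, 7183 bp). The first 3 overlapped peaks of all 5 other marks, and the chromosome 6 peak overlapped none. The narrowest were 390 bp on chromosome 4 (31145879 to 31146268), 513 bp on chromosome 5 (26607151 to 26607663), 544 bp on chromosome 10 (13885469 to 13886012), 553 bp on chromosome 5 (17666682 to 17667234) and 557 bp on chromosome 11 (11908815 to 11909371).

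The width of an H3K9me3 peak had almost no rank relation to its score. The rank correlation over the 2959 peaks was 0.0165, compared with 0.488 for H3K4ac, 0.5002 for H3K9ac, 0.518 for H3K27ac, 0.535 for H3K9me1 and 0.598 for H3K27me3. Restricted to scores under 100, it was 0.0229 for H3K9me3 and 0.279 to 0.389 for the others. The median width was 2576.5 bp (2357 to 2756) in the 10% of the H3K9me3 list with the lowest scores and 2439 bp (2310 to 2610) in the 10% with the highest, with overlapping intervals. For H3K27me3 it went from 644.5 to 2537 bp, and for H3K9me1 from 533 to 1005 bp. The peak calling settings behind each list are not given in the sources used here, and no test of this difference between lists was made.

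**Figure D5:**
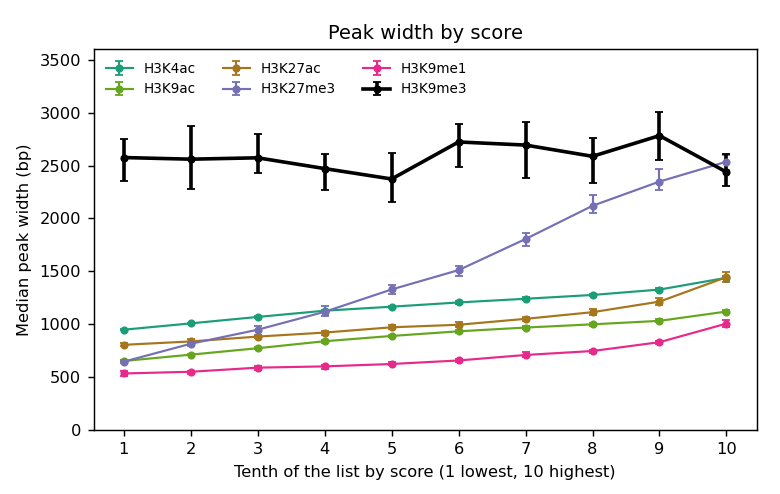
Median peak width (vertical axis, bp) in 10 equal groups of a list ordered by score (horizontal axis, 1 lowest), with exact 95% intervals, for the 6 marks. H3K9me3 (black) stays between 2373.5 and 2784 bp, whereas H3K27me3 climbs from 644.5 to 2537 bp.

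Widths also varied with position. The median was 2728 bp (2551 to 2845) in the first of the 3 parts of the span, 2730 bp (2571 to 2855) in the middle one and 2339.5 bp (2260 to 2457) in the last. The intervals of the last part and the other parts did not overlap. By chromosome the median ran from 2329 bp on chromosome 2 to 2758 bp on chromosome 10. Overlap with other marks also differed: 47.6% of the peaks of the last part (44.4 to 50.7%) overlapped no peak of the other 5 lists, against 55.6% (52.4 to 58.7%) in the first and 56.3% (53.2 to 59.3%) in the middle one. The other lists were not spread evenly either. H3K4ac peaks covered 10.8% of the last part, 8.68% of the first and 7.10% of the middle one. On H3K9me1 peaks lay 35.9% of the H3K9me3 peaks of the last part (33.0 to 39.0%), 31.9% of the middle one (29.1 to 34.9%) and 29.2% of the first (26.5 to 32.1%). The intervals of the last and middle parts overlap. On any acetylation lay 19.8% in the last part, 18.2% in the middle one and 18.7% in the first.

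Narrow H3K9me3 peaks lay on H3K9me1 more often than wide ones, although a wide peak has more room to meet another. The list was split into 4 groups of width. The share on H3K9me1 was 38.9% (35.5 to 42.5%) in the narrowest group and 24.7% (21.8 to 28.0%) in the widest, and the share whose midpoint lay inside an H3K9me1 peak was 31.5%, 21.1%, 11.9% and 7.70% from narrow to wide. The share that overlapped no other list was 46.1% in the narrowest group and 62.3% in the widest. The share that overlapped any acetylation peak was 17.97 to 19.35% in the 4 groups. By midpoint the fall was not limited to H3K9me1: for H3K27me3 the shares were 9.46%, 7.57%, 4.33% and 3.38% from narrow to wide, and for any acetylation 5.68%, 4.05%, 2.57% and 3.51%. Peaks on H3K9me1 had a median width of 2349 bp and a median score of 65.7, compared with 2702 bp and 59.5 for the others.

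The strongest peaks shared their places with other marks more often than the rest. There were 149 peaks (5.04%) with a score of at least 100, and 69.1% of them (61.3 to 76.0%) lay on H3K9me1, 43.6% on acetylation and 25.5% on no other list. Among the peaks under 100 these shares were 30.4% (28.7 to 32.1%), 17.6% and 54.6%. The overlap that even placement would give was not computed, but midpoints can be set beside the covered span. Midpoints lay in H3K9me1 peaks, which covered 1.05% of the span, for 46.3% of the strong peaks and 16.5% of those under 100. For any acetylation these shares were 26.8% and 2.74%, where H3K4ac peaks alone covered 8.87% of the span. The strong peaks fell in 130 bins, and 18 of their 137 gaps (13.1%) were under 100 kb, against 4.19% by the formula. Several of these short gaps lay in the chromosome 11 bin from 12000001 to 12500000, which held 6 strong peaks. Others lay in the chromosome 12 cluster from 11974153 to 12010054, whose peaks all scored at least 162. The share of short gaps without these places was not computed. The 5 H3K9me3 peaks with the highest scores lay on chromosome 2 from 28715244 to 28717127 (1864), chromosome 4 from 1021 to 2491 (1488), chromosome 11 from 12277508 to 12282489 (874), chromosome 12 from 11974153 to 11976563 (643) and chromosome 5 from 1 to 903 (541), and all 5 overlapped peaks of every other mark. Of the 12 highest, all lay on H3K9me1 and 8 overlapped all 5 other marks. Why peaks of all 6 lists met at such places was not tested.

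The first bases of the chromosomes held several of these strong peaks, which was noticed in the values. In the first 10 kb of the chromosomes there were 11 H3K9me3 peaks, on 9 chromosomes, where the mean density gives 0.952. Of them 9 had a score of at least 100, and 5 were among the 12 highest of the list. They overlapped H3K9me1 in 6 cases and no other mark in 4. In the last 10 kb of the span there were 4 peaks, with scores of 65.2 to 134. Of these 4, only 1 had a score of at least 100, and 3 of them ended the span of their chromosome, so their place at the tip is partly set by how the span was defined. Strong peaks were thus found in the first 10 kb, although the first 10% of the span as a whole held fewer peaks than the stretches that followed.

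The densest bin, on chromosome 11 from 12000001 to 12500000, held strong and weak peaks near each other. Its 13 peaks were 793 to 5429 bp wide, with a median of 3002 bp and scores from 51.9 to 874. The 6 with a score of at least 100 lay between 12039242 and 12329444, with 5 weaker ones between them. Of the 13 peaks, 6 overlapped all 5 other marks, and the first and the last overlapped none. Without the peaks of this bin, the variance of the counts per bin was 1.10 times the mean. Clusters of 3 or more then held 3.09% of the peaks against 1.73% by the formula. The share of empty bins, 3.59% against 2.00%, cannot show whether the excess rests on this bin, because the emptied bin itself counts as empty. The variance and the share in clusters thus stayed above the formula without these peaks.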

How the data were processed

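ChIP-seq peak lists of 6 histone marks in rice leaves were used, with 1 library for each mark. The authors aligned the reads, with Bowtie per the submitters' processing notes, and called peaks, with MACS 1.4 per the list names. The paper names a TIGR rice release for its gene pairs and RNA-seq, but the control, peak settings, read depth and build behind these lists are not given in the sources used here. Each deposited list holds positions and a score, the authors' own value; on the usual scale of that caller it would be a −log10 p-value times 10, a reading that rests on the tool's name.

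Peaks were placed by their midpoint in 500 kb bins, in 3 and in 10 equal parts of each span. Gaps, clusters of at least 3 peaks up to 10 kb apart, widths and overlaps of at least 1 bp were computed. Poisson and exponential formulas stood in for shuffled positions, since no resampling was made. Shares have Wilson intervals, medians exact binomial intervals and densities exact Poisson intervals, all at 95% and for counting error only. The places named are the 10 bins with the most covered bases, the fullest bin of each chromosome, the longest runs of empty bins, and the 5 longest gaps, largest clusters, widest, narrowest and highest-scoring peaks; other places were picked with their values in view. The peaks, rules and comparisons were chosen with earlier results of these data known. Alternatives were minimum scores of 60 and 100, merged peaks, no peaks on acetylation, other bins, spans, cluster distances and overlaps, and lists of equal number. No sequence is shown, since the lists name no build. The calculations were tested on simulated data and were made with pandas 2.3.3, numpy 2.4.6 and scipy 1.17.1 in Python 3.11.15, with plots by matplotlib 3.10.9.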

Additional observations from a re-analysis of the deposited data

How the results depend on the processing

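Of 81 alternatives to 20 values, 57 planned and 24 added after seeing the data, 52 moved the value by less than its counting error or the limit of 1.5 times and 29 moved it further. The share of the middle part of the span stayed near the even 33.3%, at 33.5% with a minimum score of 60 and 33.6% with 100. A minimum score of 60 left 1569 peaks over 4.47 Mb, with 24.98% in the fullest 10% of bins, 14.5% of bins empty (formula 12.4%), 5.202% of gaps under 10 kb (4.19%) and 1.27% of peaks in clusters (0.513%). A minimum of 100 left 149 peaks over 0.409 Mb, with a median width of 2479 bp, 63.8% in the fullest 10% of bins and 82.7% of bins empty (82.0%). Gaps under 10 kb then made up 5.11% (0.428%), and 3.36% of peaks were in clusters (0.00548%). Those clustered peaks were the 5 of the chromosome 12 cluster from 11974153 to 12010054, so this share rests on a single place. Most of the gaps under 10 kb also lay in that cluster or in the chromosome 11 bin from 12000001 to 12500000. The rank correlation of width and score was 0.156. Of the peaks of chromosomes 4 and 10, 33.3% (16.3 to 56.3%) lay in the first 20% of the span. That interval includes the 17.3% of the other 10 chromosomes. Without peaks on acetylation, 7.04% of bins were empty (4.13%), 6.91% of gaps were under 10 kb (6.42%), 2.04% of peaks were in clusters (1.18%) and 8 chromosomes were denser in the middle part. The central 50% held 52.4% and was denser on 10 chromosomes. Bins of 250 kb gave 24.0% in the fullest 10% of bins and 15.2% empty (13.9%), and bins of 1 Mb 16.9% and 0.263% (0.0415%). Clusters with peaks up to 5 kb apart held 1.08% (0.466%) and up to 20 kb apart 7.67% (6.11%). With lists of equal number, the middle part held 31.6% of H3K4ac, 31.8% of H3K9ac and 27.3% of H3K27ac peaks. A higher minimum score or a smaller bin leaves fewer peaks per bin, and the formula share of empty bins then rose as well. Why any of these values moved was not tested. The near-zero correlation of width and score changed sign, to -0.00995 at a minimum score of 60 and -0.00746 without peaks on acetylation. The chromosomes denser in the middle, 5 of 12, became a majority without acetylation and with the central 50%. No paired analysis was possible because each mark had 1 library. Depth is unknown, so an empty bin is not shown to lack the mark, and a peak near the lowest score could appear or vanish with depth.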

Other observations

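Of the 11 H3K9me3 peaks in the first 10 kb of the chromosomes, 7 began between bases 964 and 1021, each on a different chromosome. These were the peaks at the starts of chromosomes 1, 3, 4, 6, 7, 8 and 10, with scores of 120 to 1488. The peaks of chromosomes 2 and 5 began at bases 3 and 1. This was noticed in the values and no test was made.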
